A study of Mus musculus with 4 samples.

Results

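The CXC chemokines described here are 9 of the 31053 genes in the deposited tables: Cxcl1, Cxcl2, Cxcl5, Cxcl9, Cxcl10, Cxcl12, Cxcl13, Cxcl14 and Cxcl16. They were chosen by symbol, all 9 were matched, and each had UMIs (unique molecular identifiers, which count captured transcripts) in every library. The RNA of single pancreas cells was measured in wild-type C57BL/6 mice given saline or caerulein, a cholecystokinin analogue that injures the exocrine pancreas, and left to recover for 2 days or 6 weeks. The 4 groups are saline at 2 days (S2D), caerulein at 2 days (C2D), saline at 6 weeks (S6W) and caerulein at 6 weeks (C6W). Dissociated cells that excluded DAPI, a dye that enters dead cells, were sorted and profiled by droplet sequencing of transcript 3' ends (10x Genomics). The number of animals behind a library is not given in the sources used here. Each group is 1 library, so no p-value could be computed, and every interval below (exact, 95%) covers counting error only.

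CXC chemokines are small secreted proteins that draw leukocytes along a gradient. Cxcl1, Cxcl2 and Cxcl5 act on Cxcr2 and recruit neutrophils. Cxcl9 and Cxcl10 are induced by interferons and act on Cxcr3 of T and NK cells. Cxcl12 retains Cxcr4-bearing cells in tissue, Cxcl13 organises B cells through Cxcr5, Cxcl14 is made by many stromal cells, and Cxcl16 is anchored in the membrane, binds Cxcr6 and is shed by metalloproteases.

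The libraries held 2623 to 5433 barcodes and 29145886 to 71547194 UMIs, and 2018 to 4651 cells per library were analysed, with a median of 8325 to 14057 UMIs per cell. Clustering without the 9 genes gave 34 groups of cells. Marker genes named 33 of them, and a class name here means cells like that type. The remaining cluster held 368 cells, 352 of them from C2D, and is called by its leading genes the Reg3b Krt8 cluster. Most C2D cells lay in clusters of their own: 539 of 586 fibroblast-like cells in cluster 27, 164 of 176 ductal-like cells in cluster 22 and 431 of 453 acinar-like cells in cluster 32. A cell class in C2D and in S2D is therefore a comparison of different clusters. Pairs of libraries shared 0 to 10 barcodes among analysed cells. In each library T-like and B-like cells, which do not make digestive enzymes, carried 51.6 to 192 UMIs of digestive enzyme genes per cell. They had a median of 6167, 5353, 7089 and 8173 UMIs in the 4 libraries, in the order S2D, C2D, S6W, C6W that is kept below. The level of each chemokine in these lymphocytes is given below as the background that free RNA and stray cells can give.

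Of the 9 genes 6 lie on mouse chromosome 5 (GRCm38, GENCODE vM21). Cxcl5 (90759360 to 90761624), Cxcl1 (90891241 to 90893115) and Cxcl2 (90903871 to 90905938) follow each other on the plus strand. Cxcl9 (92321347 to 92328079) and Cxcl10 (92346638 to 92348889) are neighbours on the minus strand, and Cxcl13 lies at 95956951 to 95961068. Cxcl12 lies on chromosome 6 (117168535 to 117181367, plus strand), Cxcl16 on chromosome 11 (70453983 to 70459984, minus) and Cxcl14 on chromosome 13 (56288643 to 56296551, minus). All 9 are protein-coding. The stretch from 250 to 31 bases before the start was read for the 7 genes with a RefSeq promoter (GRCm38.p6). It is shown for the 2 neighbouring pairs whose levels are followed below, as the genes of each pair differed in the cells that held their RNA. Capitals mark matches, on either strand, to the NF-kB consensus and to the interferon-stimulated response element GAAANNGAAA.
Cxcl1, chr5:90890995-90891214, plus strand: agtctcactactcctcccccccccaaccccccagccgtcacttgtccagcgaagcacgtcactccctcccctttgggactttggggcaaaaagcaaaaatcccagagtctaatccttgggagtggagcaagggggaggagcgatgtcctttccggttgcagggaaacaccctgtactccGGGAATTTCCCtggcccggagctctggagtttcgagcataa
Cxcl2, chr5:90903649-90903868, plus strand: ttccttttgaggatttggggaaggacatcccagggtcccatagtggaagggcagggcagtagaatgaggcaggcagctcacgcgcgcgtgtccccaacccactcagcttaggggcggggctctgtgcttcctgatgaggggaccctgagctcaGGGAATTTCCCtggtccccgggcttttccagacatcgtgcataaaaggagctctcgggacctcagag
Cxcl10, chr5:92348920-92349139, minus strand: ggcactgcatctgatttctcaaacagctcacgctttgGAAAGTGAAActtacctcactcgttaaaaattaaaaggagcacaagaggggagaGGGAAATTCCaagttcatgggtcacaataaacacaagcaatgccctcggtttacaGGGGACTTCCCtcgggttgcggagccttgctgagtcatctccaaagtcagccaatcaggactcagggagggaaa
Cxcl9, chr5:92328110-92328329, minus strand: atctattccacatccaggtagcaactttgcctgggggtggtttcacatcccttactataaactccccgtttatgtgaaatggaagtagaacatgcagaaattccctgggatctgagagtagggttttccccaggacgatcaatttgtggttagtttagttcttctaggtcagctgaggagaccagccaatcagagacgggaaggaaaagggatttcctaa
Cxcl1 and Cxcl2 carried the same 11-base stretch GGGAATTTCCC, which matches NF-kB on both strands, starting 71 and 97 bases before the start. Cxcl10 had NF-kB matches starting 159 and 104 bases before the start, where 2 matches overlap, and the interferon element starting 213 bases before it. Over 32851 promoter windows of the same length, 6.34% held the NF-kB consensus and 2.63% the interferon element. Among the 7 chemokine windows these were found in 3 and in 2, the other with an interferon element being Cxcl14. The STAT element TTCNNNGAA, in 6.27% of windows, was found in Cxcl14 alone among the 7. A match is a string of letters and not a measured binding site, and no match was found in these letters for Cxcl9, Cxcl12 and Cxcl13.

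A class was counted as a producer of a gene in a library where it held at least 10% of the gene's UMIs there, with at least 10 UMIs, and where the lower bound of its level was over 2 times the level of T-like and B-like cells. The classes that held the RNA differed from gene to gene and, for some genes, between C2D and the other libraries. Fibroblast-like cells held most of the UMIs of Cxcl1 (91.5% in S2D, 91.1% in S6W and 97.5% in C6W), Cxcl12 (76.5% to 85.8%) and Cxcl14 (87.7% to 99.4%). Fibroblast-like cells were the one producer of Cxcl1 and Cxcl14 in S2D, S6W and C6W. Cxcl12 had ductal-like cells as a further producer in S2D and C6W, and blood endothelial-like cells in S6W. Macrophage-like cells held most of Cxcl2 in C2D (94.1%), S6W (87.5%) and C6W (61.8%), and in S2D they held 39.5%. Neutrophil-like and ductal-like cells were further producers in S2D, the ductal ones with 454 of 883 UMIs in 1 cell, and fibroblast-like cells (1719 of 11724 UMIs) and neutrophil-like cells (1293) in C6W. Cxcl10 came from fibroblast-like and macrophage-like cells in S2D, S6W and C6W, with ductal-like cells added in S2D and C6W. Cxcl16 had 4 producers in each of these 3 libraries, the macrophage-like, ductal-like, fibroblast-like and dendritic-like cells. Cxcl9 came from dendritic-like and fibroblast-like cells in all 3, with blood endothelial-like cells added in S2D (27 of 244 UMIs) and S6W (23 of 209) and macrophage-like cells in C6W. Cxcl5 had fibroblast-like cells alone in these 3 libraries. Cxcl13 came from fibroblast-like cells in S2D and S6W and in C6W from these and 1 macrophage-like cell, and no class met the rule in C2D. In C2D macrophage-like cells also led for Cxcl1 (69.6%), Cxcl9 (46.1%), Cxcl10 (82.2%) and Cxcl16 (79.8%). Fibroblast-like cells were a further producer of Cxcl1 (25.2%) and Cxcl9 (40.2%) there. Cxcl5 came from ductal-like (50.3%) and fibroblast-like cells (47.9%) in C2D, and Cxcl14 from fibroblast-like (87.7%) and macrophage-like cells (11.2%). Macrophage-like cells were 2323 of the 4651 cells of C2D against 78 of 3308 in S2D. Shares of a library's UMIs thus follow cell numbers as well as the level per cell, and the levels are given below as UMIs of the gene per 1000000 UMIs of the class (CPM).

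**Figure D1:**
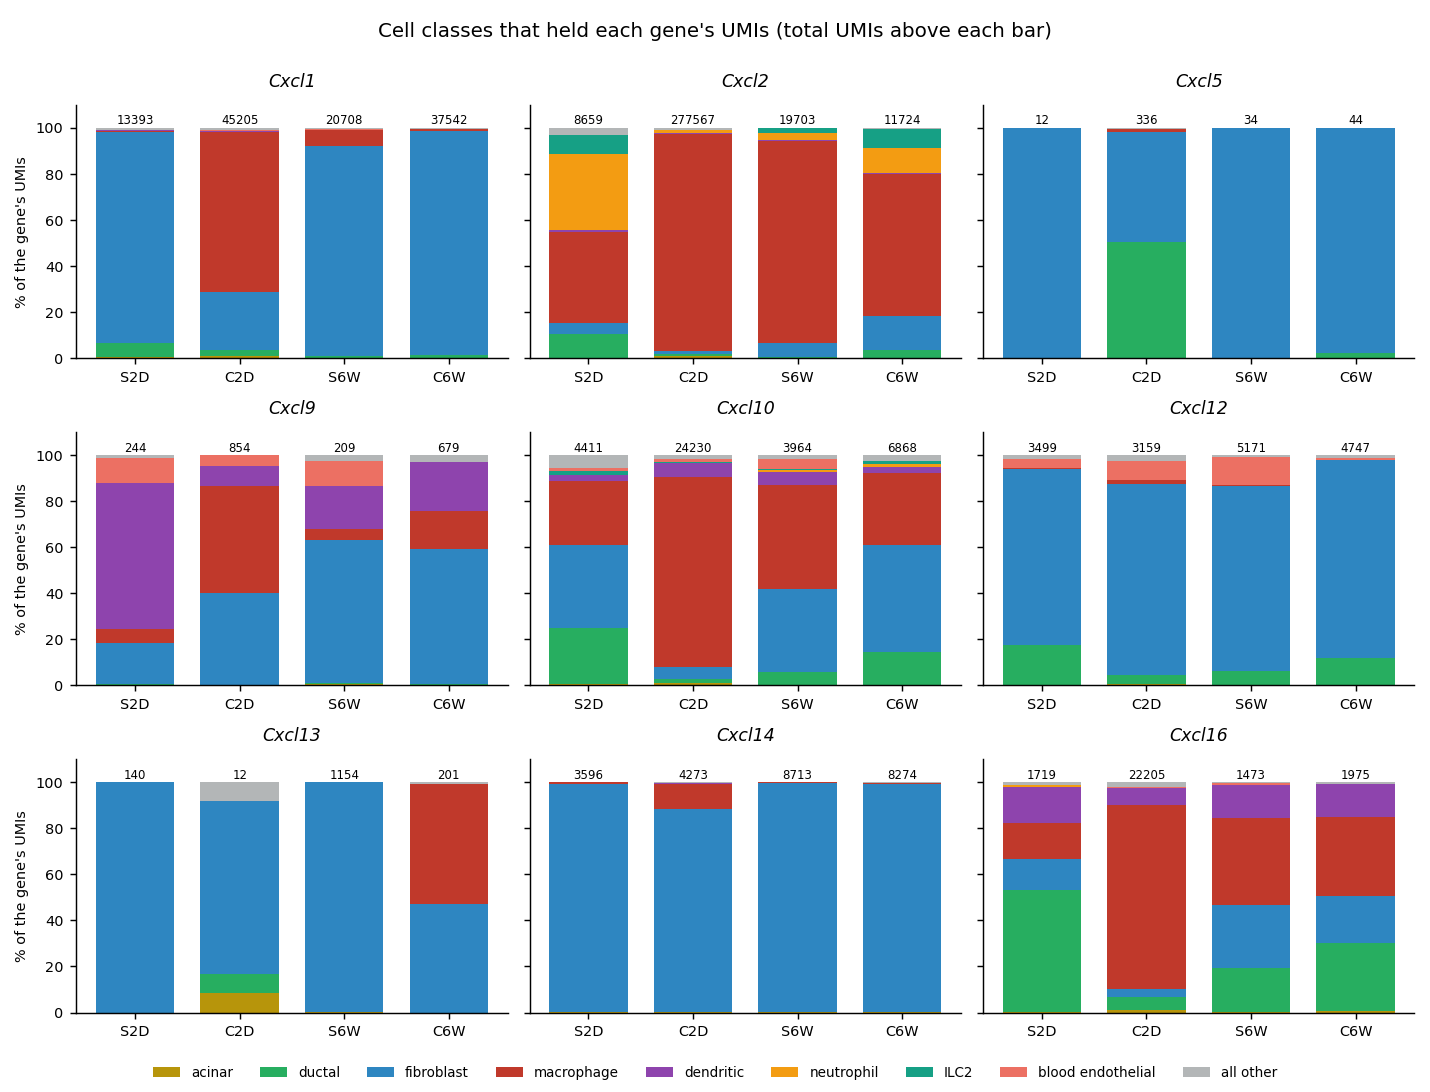
Share of each gene's UMIs held by each cell class, in percent, with the 4 libraries as bars and the gene's UMIs over all analysed cells printed above each bar. For Cxcl1 the fibroblast-like share is over 91% in S2D, S6W and C6W, and in C2D the macrophage-like share is 69.6%.

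**Figure D2:**
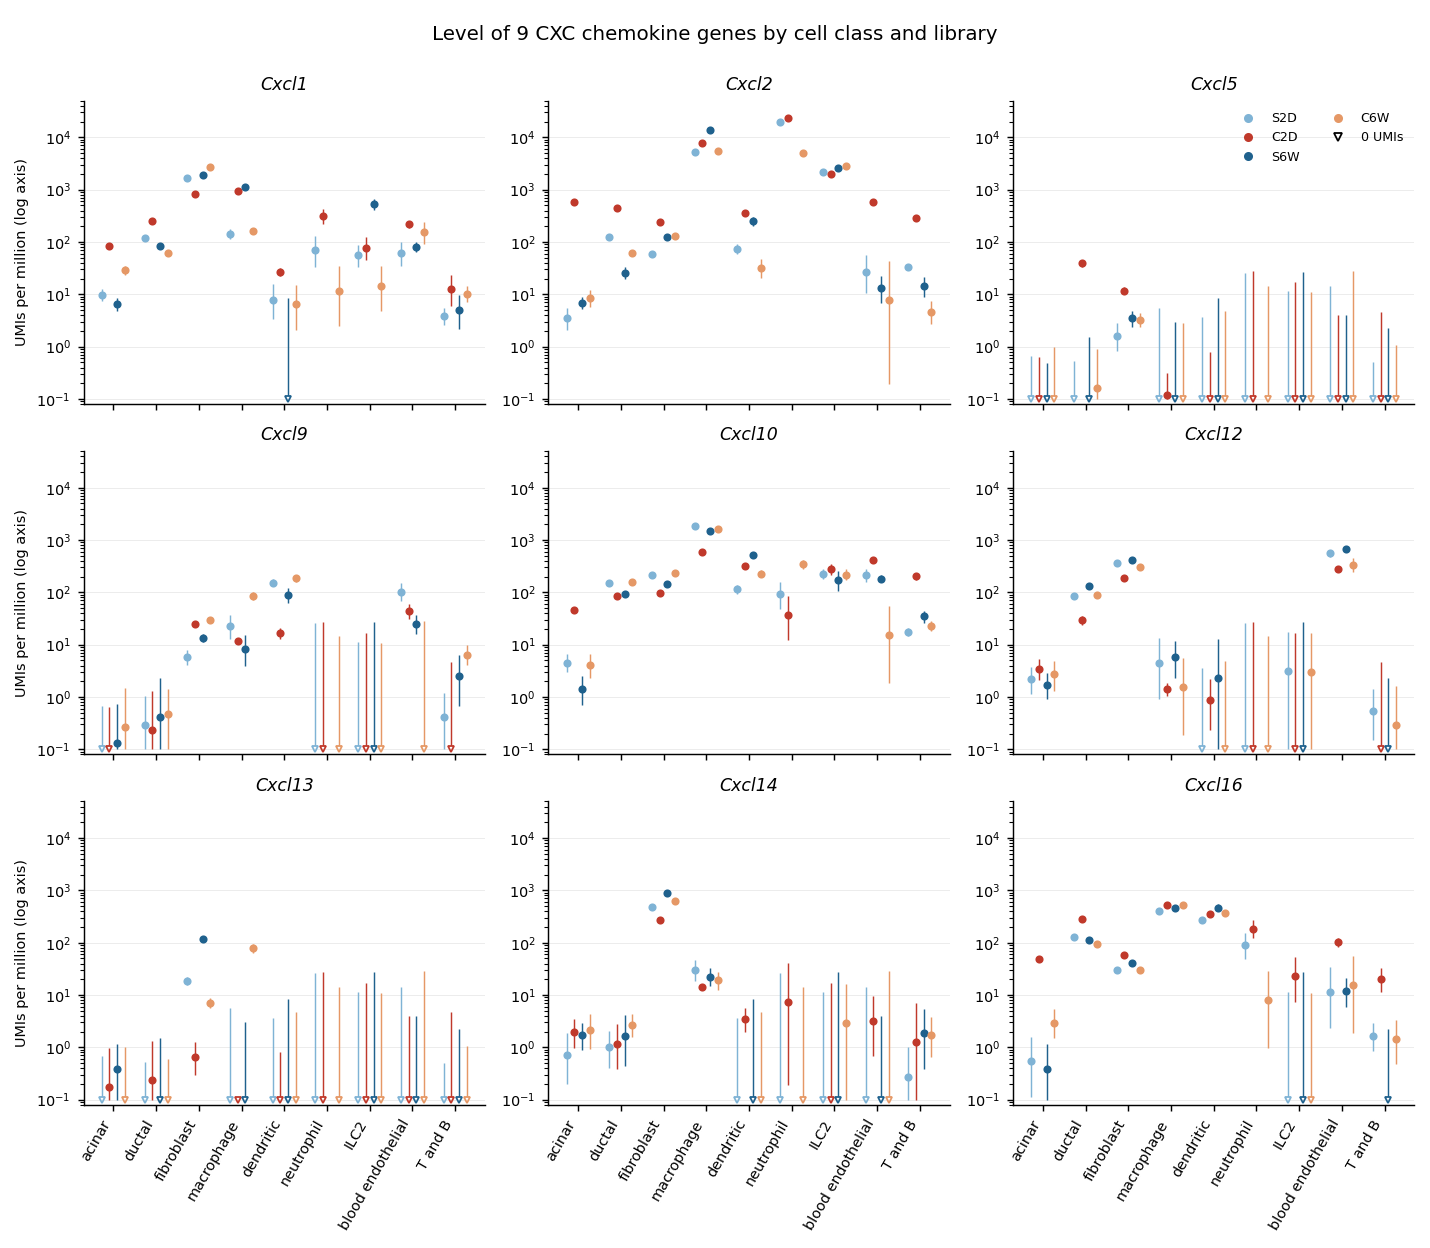
Level of each gene in CPM (log axis) in 8 cell classes and in T-like and B-like cells together, 1 point per library, with exact 95% Poisson bars; open triangles are classes with 0 UMIs, drawn at 0.1, and classes of fewer than 16 cells are left out. Cxcl2 is above 2000 in macrophage-like, neutrophil-like and type 2 innate lymphoid-like (ILC2) cells of every library shown.

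Cxcl1 was at 1647 CPM in fibroblast-like cells of S2D and 832 in C2D, then 1925 in S6W and 2751 in C6W. C2D was the lowest of the 4 libraries and C6W the highest, and no 2 intervals overlap. In C2D the fibroblast-like cells held 19.4 Cxcl1 UMIs per cell against 17.9 in S2D, at a median of 22576 and 10816 total UMIs per cell. Relative to all their RNA, the level was 1.83-fold lower in C2D (log2 ratio -0.87, interval -0.91 to -0.83) and 1.56-fold higher in C6W than in S6W (0.64, 0.61 to 0.66). In macrophage-like cells Cxcl1 was at 142 CPM in S2D and 952 in C2D, then 1129 in S6W and 162 in C6W. The caerulein library was 7.003-fold higher at 2 days (log2 2.81, 2.52 to 3.12) and 6.99-fold lower at 6 weeks (-2.80, -3.02 to -2.60). The 2 saline libraries differed as much, with S6W 8.02-fold above S2D, and C6W set against S2D gave a log2 ratio of 0.18 (-0.17 to 0.55). C2D, at 952 CPM, was above S2D but below S6W. At 2 days and at 6 weeks the difference in macrophage-like cells thus rests on the saline library it is set against. Ductal-like cells had 120 CPM in S2D and 254 in C2D, then 84.9 in S6W and 62.9 in C6W, which is 2.24-fold higher in C2D and 1.34-fold lower in C6W. T-like and B-like cells had 3.85 to 12.7 CPM of Cxcl1.

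Cxcl2 was measured at 5174 CPM in macrophage-like cells of S2D and 7910 in C2D, then 14133 in S6W and 5529 in C6W. A Cxcl2 UMI was found in 84.6%, 98.1%, 92.4% and 85.7% of these cells, and in 75.0%, 91.6%, 89.0% and 74.3% after each cell was thinned to 1000 UMIs. C2D was 1.60-fold above S2D and C6W 2.57-fold below S6W, and again the saline libraries differed more (S6W 2.76-fold above S2D). Within cluster 2, where most S2D macrophages lay, C2D was the lower at 5848 CPM in 13 cells against 6664 in 52 cells of S2D. With S2D as the control of C6W the log2 ratio was 0.09. Of T-like and B-like cells 3.74%, 26.5%, 3.30% and 2.70% had a Cxcl2 UMI. Neutrophil-like cells, few in each library (32, 33, 5 and 24 cells), had 19952, 23824, 14456 and 5098 CPM and held 32.8% of the Cxcl2 UMIs of S2D. Another holder was the type 2 innate lymphoid-like class, whose leading genes were Areg, Csf2 and Gata3. It had 2194, 2013, 2578 and 2824 CPM in S2D, C2D, S6W and C6W, above the 34.0, 293, 14.2 and 4.67 of T-like and B-like cells in every library, and 50% to 82.4% of its 20 to 55 cells had a UMI (30% to 64.7% after thinning). The macrophage gene Lyz2 was at 3.08, 313, 7.39 and 5.90 CPM in these cells. In C6W 399 of the 957 Cxcl2 UMIs of this class came from 1 cell.

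In cells that held little Cxcl2 under saline, C2D was higher. Acinar-like cells had 3.46 CPM in S2D and 594 in C2D, then 6.87 in S6W and 8.4 in C6W, and C2D was 50.3-fold above S2D (log2 5.65, 5.01 to 6.39). Ductal-like cells had 126, 444, 25.8 and 62.0 CPM, 3.72-fold higher in C2D. Here 454 of the 883 UMIs of S2D came from 1 cell of 130764 UMIs, and without the leading cell of each library the log2 ratio moved from 1.90 to 2.74. Fibroblast-like cells had 58.2, 236.5, 126 and 129 CPM, 4.40-fold higher in C2D than in S2D (log2 2.14). The saline library S6W was itself 2.16-fold above S2D in these cells (log2 1.11). Blood endothelial-like cells had 26.9 CPM in S2D and 585 in C2D, where 228 of the 541 UMIs were in 1 cell.
Markers of macrophages were measured in the same cells. The 12 on the list summed to 24.8 CPM in acinar-like cells of S2D and 6752 in C2D, to 1584 and 2309 in fibroblast-like cells and to 10174 and 2481 in ductal-like cells, where the sum was thus lower in C2D. In each of these classes 2 of the 12 were at 0 in S2D and 0 in C2D. In blood endothelial-like cells the sum was 676 CPM in S2D, with 9 of the 12 at 0, and 5041 in C2D with 0 at 0. Lyz2 had 0 UMIs in these endothelial cells of S2D and was at 580 CPM in C2D. In acinar-like cells the macrophage gene Lyz2 went from 1.64 CPM in S2D to 1571 in C2D. It went from 2.29 to 330 in ductal-like and from 4.03 to 390 in fibroblast-like cells. The macrophage gene C1qb had 7 UMIs in ductal-like cells of S2D and 214 in C2D. In ductal-like cells the marker sum was thus lower in C2D while Lyz2 and C1qb were higher. The sum therefore does not gauge macrophage RNA in this class. Macrophage-like cells of C2D carried 39.4 Cxcl2 UMIs for each 100 of Lyz2. Acinar-like cells carried 37.8, T-like cells 30.3, fibroblast-like cells 60.7, blood endothelial-like cells 100.9, ductal-like cells 135, neutrophil-like cells 170 and type 2 innate lymphoid-like cells 644. In acinar-like and T-like cells the ratio was thus close to that of macrophages, and in the other classes named it was higher. Neutrophil-like cells of S2D held Lyz2 at 9913 CPM with 0 UMIs of C1qb, so in this class the ratio does not gauge macrophage RNA. Against C1qb, another macrophage gene, macrophage-like cells carried 140 Cxcl2 UMIs per 100, blood endothelial-like cells 138, acinar-like cells 168, fibroblast-like cells 228, T-like cells 290 and ductal-like cells 881. T-like and B-like cells of C2D had 293 CPM of Cxcl2, 159 of their 231 UMIs in 1 cell, and 26.5% of them had a UMI. What part of the Cxcl2 of acinar-like, ductal-like, fibroblast-like and blood endothelial-like cells came from macrophage RNA was not tested.

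Cxcl5 was scarce, with 12 UMIs in S2D and 336 in C2D, then 34 in S6W and 44 in C6W. Fibroblast-like cells held 12, 161, 34 and 43 of these. Ductal-like cells held 169 in C2D, in 20.5% of 176 cells (2.29% after thinning), and 0 in 771 cells of S2D, which allows a share of up to 0.389% of cells with a UMI, 0 in 220 of S6W (up to 1.36%) and 1 in 555 of C6W. Against a floor of 3 counts over the S2D class, the C2D level in ductal-like cells was 98.2-fold higher (log2 6.62, exact lower limit 6.30). In fibroblast-like cells C2D was 7.89-fold above S2D (log2 2.98, 2.14 to 3.96). T-like and B-like cells had 0 Cxcl5 UMIs in all 4 libraries, with upper bounds of 0.508 to 4.68 CPM, and macrophage-like cells had 4 among 2323 cells of C2D. Of the ductal UMIs 124 were in 10 cells of cluster 22, a cluster led by Lcn2.

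Cxcl10 was at 1834 CPM in macrophage-like cells of S2D and 603 in C2D, then 1470 in S6W and 1648 in C6W. C2D stood apart as the lowest, 2.91-fold below S2D (log2 -1.54, -1.63 to -1.46), while C6W was 1.12-fold above S6W. The shared macrophage cluster 2, which held 52 of the 78 cells of S2D and 13 of the 2323 of C2D, was not lower in C2D: it had 2453 CPM in S2D (2312 to 2600) and 2822 in C2D (2586 to 3074), intervals that overlap, and 1604 in S6W and 2196 in C6W. With 2323 macrophage-like cells against 78, this class of C2D still held more Cxcl10 UMIs, 19909 against 1214. Fibroblast-like cells had 214.5, 98.2, 145 and 239 CPM, with C2D the lowest here too and C6W the highest. C2D was 2.02-fold below S2D and C6W 1.80-fold above S6W. Ductal-like cells had 153, 86.7, 93.5 and 158 CPM, 1.67-fold lower in C2D and 1.70-fold higher in C6W. The saline library S6W was itself 1.63-fold below S2D in these cells (log2 -0.71), near the 2-day difference (-0.74). Of the 989 Cxcl10 UMIs in ductal-like cells of C6W, 306 were in 1 cell. Without the leading cells the 6-week log2 ratio was 0.42 against 0.77 with them, and with S2D as the control it was 0.05. Of the other classes, blood endothelial-like cells had 211, 422 and 183 CPM in S2D, C2D and S6W, and dendritic-like cells 114, 324, 511 and 226. T-like and B-like cells had 17.3 to 204 CPM, the highest in C2D.

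Cxcl9, the neighbour of Cxcl10, was held by few cells: 36 cells of S2D, 109 of C2D, 31 of S6W and 64 of C6W had a UMI, and the 4 to 8 leading cells held 50% of each library's UMIs. Dendritic-like cells held 63.1% of the 244 UMIs of S2D at 153 CPM, against 16.5 in C2D, 88.5 in S6W and 185.5 in C6W. Fibroblast-like cells had 5.78 CPM in S2D and 25.0 in C2D, then 13.3 in S6W and 29.9 in C6W. Each caerulein library was above its own saline library, 4.69-fold at 2 days (log2 2.23, 1.77 to 2.72) and 2.46-fold at 6 weeks (1.30, 1.01 to 1.59). The saline libraries differed nearly as much as the 6-week pair, with S6W 2.29-fold above S2D (log2 1.19, 0.69 to 1.73). Cells with at least 5 UMIs numbered 1 in S2D, with 29 of the 43 UMIs, and 18 in C2D, with 250 of 343. In S6W 4 such cells held 115 of 130 UMIs and in C6W 22 held 363 of 398. Without the leading cell of each library the log2 ratio was 3.60 at 2 days, 1.71 at 6 weeks and 2.22 for S6W over S2D. In macrophage-like cells 394 UMIs of C2D included 219 in 1 cell and 112 of C6W included 76 in 1 cell, so the 10.4-fold higher level at 6 weeks rests on few cells.

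Cxcl12 was highest in blood endothelial-like cells, at 557 CPM in S2D and 283 in C2D, then 689 in S6W and 337 in the 16 such cells of C6W, and in fibroblast-like cells, at 359.5, 191, 424 and 306. In both classes each caerulein library was below its saline library, and the intervals do not overlap. In fibroblast-like cells the difference was 1.73-fold at 2 days (log2 -0.79, -0.87 to -0.72) and 1.27-fold at 6 weeks (-0.35, -0.41 to -0.28). Ductal-like cells had 86.8, 29.2, 130 and 89.1 CPM, 2.81-fold lower at 2 days and 1.45-fold lower at 6 weeks. The saline libraries differed here too, and C6W set against S2D gave a log2 ratio of 0.05 in ductal-like cells. Cxcl12 was spread over many cells, with 122 to 250 of them holding 50% of the UMIs. T-like and B-like cells had 0 to 0.551 CPM.

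Cxcl14 was at 479 CPM in fibroblast-like cells of S2D and 274 in C2D, then 884 in S6W and 616 in C6W. It was 1.62-fold lower in C2D than in S2D and 1.32-fold lower in C6W than in S6W, and with S2D as the control of C6W the log2 ratio was 0.47 (0.41 to 0.53). S6W was 1.84-fold above S2D, a difference between saline libraries larger than either caerulein difference. Macrophage-like cells had 30.2, 14.5, 22.1 and 19.1 CPM, a level above the 0.275 to 1.86 CPM of T-like and B-like cells. Within fibroblasts Cxcl14 varied more by cluster than by library. Cluster 6, with Smoc2, Mgp and Ccl11 among its leading genes, had 1156, 1540 and 1299 CPM in S2D, S6W and C6W, cluster 7 had 661, 976 and 885, and cluster 17, led by Pi16 and Clec3b, had 11.8, 28.3 and 9.05. Cluster 27, where the C2D fibroblasts lay (Postn, Col1a1), had 286 CPM.

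Other members were split over the fibroblast clusters in another way. Cxcl1 was at 2476, 2696 and 3723 CPM in cluster 7 of S2D, S6W and C6W and at 997, 731 and 1257 in cluster 6, which shares most of its leading genes. Cluster 17 had 1315.5, 2559 and 2353. Cxcl12 was at 337 to 499 CPM in clusters 6 and 7 and at 190 to 232 in cluster 17 of the same 3 libraries. In C2D, cluster 27 had 843 CPM of Cxcl1, 94.95 of Cxcl10 and 170 of Cxcl12. The 27 C2D cells in cluster 11 (Ptn, Lum) had 711 CPM of Cxcl12, above the 371 and 394 of the saline cells in that cluster. The 9 genes were left out of the variable genes used for clustering, but their levels by cluster are a description and not a test.

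**Figure D3:**
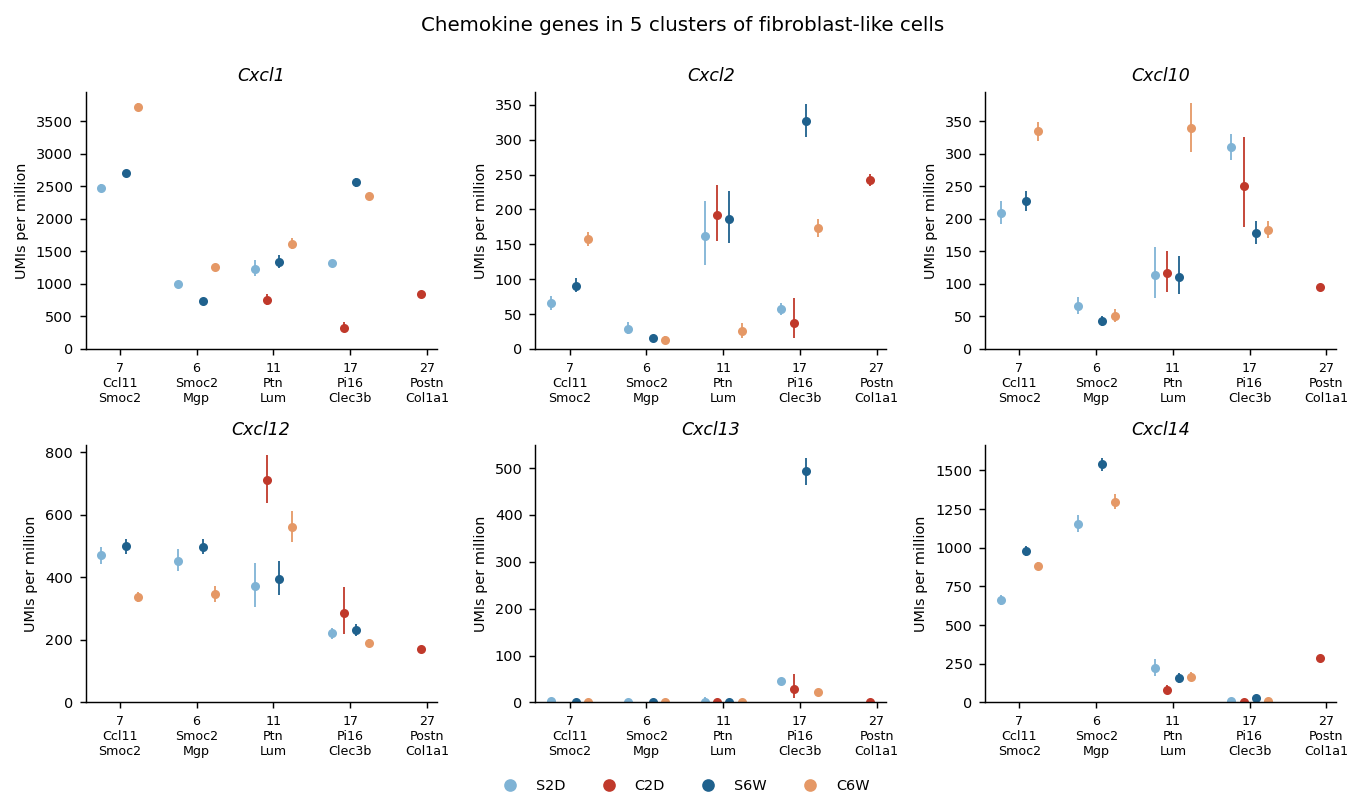
Level of 6 genes in CPM (y axis) in 5 clusters of fibroblast-like cells (x axis, with the cluster number and 2 of its leading genes), 1 point per library with at least 16 cells, with exact 95% Poisson bars. Cxcl14 is highest in cluster 6 (1156 to 1540) and at 9.05 to 28.3 in cluster 17 of the same libraries, and most of the Cxcl13 value of 493 in S6W comes from 1 cell.

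Cxcl13 rested on single cells. It had 140 UMIs in S2D and 12 in C2D, then 1154 in S6W and 201 in C6W, in 9 to 15 cells per library. In S6W 1077 of these UMIs were in 1 fibroblast-like cell of 27902 UMIs, and in C6W 104 were in 1 macrophage-like cell. Fibroblast-like cells had 18.8, 0.657, 117 and 7.14 CPM, and of the cells with at least 5 UMIs, 6 of 7 in S2D, 4 of 4 in S6W and 3 of 3 in C6W were in cluster 17, the Pi16 cluster. C2D, with 16 cells in that cluster, had no such cell. The log2 ratio at 6 weeks was -3.92, and -1.67 without the leading cell of each library. The saline difference of 2.64 became -0.78. At 2 days it was -4.73, with 9 UMIs against 140. Within cluster 17, which held 232 fibroblast-like cells of S2D and 16 of C2D, Cxcl13 was at 44.8 CPM in S2D (37.5 to 53.1) and 27.8 in C2D (10.2 to 60.4), and these intervals overlap.

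**Figure D4:**
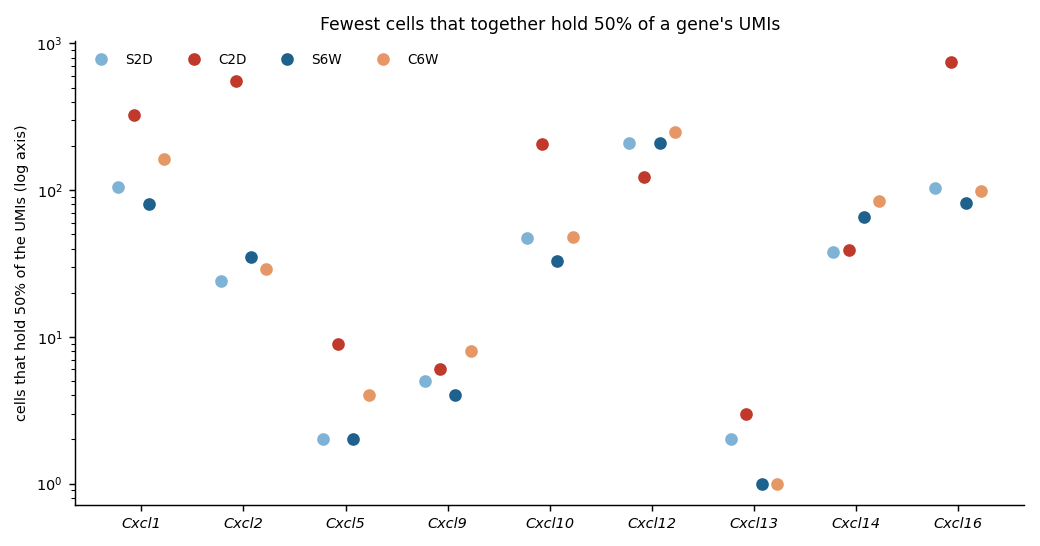
Fewest cells (y axis, log scale) that together hold 50% of a gene's UMIs in each library, 1 point per library. Cxcl13 needs 1 to 3 cells and Cxcl9 4 to 8, against 122 to 250 for Cxcl12.

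Cxcl16 was at 409.5 CPM in macrophage-like cells of S2D and 537 in C2D, then 455 in S6W and 519 in C6W, and at 270, 350, 470 and 362 in dendritic-like cells. In macrophage-like cells C2D was 1.37-fold above S2D and C6W 1.14-fold above S6W. Ductal-like cells had 130, 283, 114 and 93.9 CPM, and a UMI in 43.6%, 79.0%, 46.8% and 46.7% of cells (8.98%, 16%, 6.82% and 9.6% after thinning). C2D stood out as the highest, 2.30-fold above S2D (log2 1.20, 1.08 to 1.33). Cxcl16 came with 85.9 UMIs per 100 of Lyz2 in the ductal-like cells of C2D, against 2.67 in macrophage-like and 2.01 in T-like cells. In fibroblast-like cells Cxcl16 was at 30.6, 57.9, 41.6 and 29.8 CPM, 2.05-fold higher in C2D and at 14.9 UMIs per 100 of Lyz2 there. Acinar-like cells had 0.547 CPM in S2D and 49.9 in C2D, at 3.18 UMIs per 100 of Lyz2, a ratio near that of macrophages. The Reg3b Krt8 cluster of C2D had 82.0 CPM and 69.3 per 100. Of T-like and B-like cells 0.856% in S2D, 5.13% in C2D and 0.539% in C6W had a Cxcl16 UMI, and S6W had 0 UMIs, with an upper bound of 2.28 CPM.

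Counted against all genes, the 2-day differences fell on a background that was itself large. A gene was compared where the pair of libraries had 100 UMIs or more of it, and counted where the TMM-scaled ratio reached 2-fold. In acinar-like cells 4 of the 4 chemokines measured were at least 2-fold higher in C2D and 0 lower, where 20.6% and 13.2% of all genes were. Cxcl1, Cxcl2, Cxcl10 and Cxcl16 had 54, 19, 25 and 3 UMIs in these cells of S2D. They reached the minimum through C2D, so the minimum itself favoured genes higher in C2D. The same holds for Cxcl5 in ductal-like cells and for Cxcl5 and Cxcl9 in fibroblast-like cells, with 0, 12 and 43 UMIs in S2D. In ductal-like cells 4 of 6 were higher (Cxcl1, Cxcl2, Cxcl5 and Cxcl16) and 1 lower (Cxcl12), where 5.14% and 5.65% of genes were. In fibroblast-like cells 4 of 9 were higher (Cxcl2, Cxcl5, Cxcl9 and Cxcl16) and 2 lower (Cxcl10 and Cxcl13), against 9.33% and 5.55%. In macrophage-like cells 1 of 6 was higher (Cxcl1) and 1 lower (Cxcl10), against 14.4% and 6.52%, with Cxcl14 just short of 2-fold at a log2 ratio of -0.999. This Cxcl1 level of C2D was above S2D but below the saline library S6W, as given above. The median log2 ratio of the measured members at 2 days was 3.16 in acinar-like cells (all genes 0.15), 1.18 in ductal-like (-0.04), -0.69 in fibroblast-like (0.05) and -0.20 in macrophage-like cells (0.17). At 6 weeks 1 of 1 was higher in acinar-like cells (Cxcl1), where 2.04% of genes were higher and 1.48% lower. In ductal-like cells 1 of 5 was higher (Cxcl2) and 0 lower, where 0.33% and 0.0977% of genes were, and with S2D as the control this Cxcl2 ratio was -1.02. In fibroblast-like cells 1 of 8 was higher (Cxcl9) and 1 lower (Cxcl13), against 0.658% and 0.668%. In macrophage-like cells 2 of 6 were higher (Cxcl9 and Cxcl13) and 2 lower (Cxcl1 and Cxcl2), against 3.0% and 5.62%. The higher Cxcl1 of acinar-like, Cxcl2 of ductal-like, and Cxcl9 and Cxcl13 of macrophage-like cells had 50, 63, 10 and 0 UMIs in S6W. These reached the minimum through C6W. The medians at 6 weeks were 1.56 (all genes -0.23), -0.27 (0.01), -0.09 (0.01) and 0.17 (0.0031) in the same order of classes. Without the leading cell of each member, 0 were counted as higher in macrophage-like cells at 6 weeks. Cxcl9 was then under the minimum, with 36 and 4 UMIs, at a log2 ratio of 3.06 against 3.37 with these cells.

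**Figure D5:**
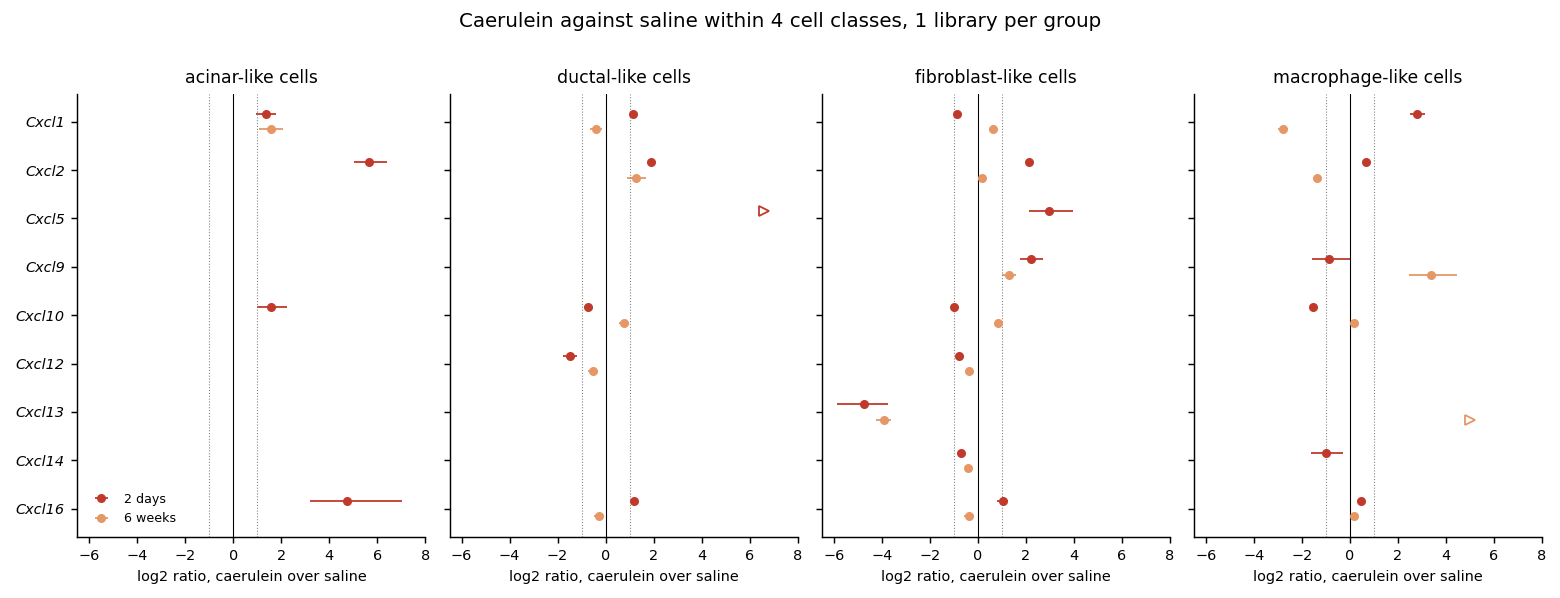
Log2 ratio of caerulein over saline (x axis, TMM-scaled) for each member with at least 100 UMIs over both libraries, in 4 cell classes at 2 days and 6 weeks, with exact 95% intervals for counting error. Open triangles are ratios against a floor of 3 counts for a library with 0 UMIs, and dotted lines mark 2-fold. Cxcl1, Cxcl10 and Cxcl16 lie on opposite sides of 0 at the 2 times in fibroblast-like cells.

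Acinar-like values depended on scaling and on which cells were counted. Acinar-like Cxcl1 was at 9.85 CPM in S2D and 85.8 in C2D, then 6.48 in S6W and 28.7 in C6W, and Cxcl10 at 4.56, 46.6, 1.43 and 4.07. At 2 days the log2 ratio of Cxcl1 was 1.35 with TMM totals and 3.12 in plain CPM, a scaling that moved the median of all genes from 0.15 to 1.92. With the Reg3b Krt8 cluster added to the acinar-like cells, the ratio of Cxcl1 was 0.18 and that of Cxcl10 was 0.49, while Cxcl2 stayed at 4.37 and Cxcl16 at 4.08, and the median of all genes was 0.23. Other clusterings turned the sign in acinar-like cells: at a coarser Leiden resolution of 0.5 Cxcl1 was at -0.77 and Cxcl10 at -0.60. At 6 weeks Cxcl1 was 2.95-fold higher in C6W (log2 1.56, 1.06 to 2.08), and T-like and B-like cells had 10.2 CPM of Cxcl1 in C6W against 4.95 in S6W. With free RNA subtracted, Cxcl1 was not counted as 2-fold higher at 6 weeks.

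The receptors of these ligands were measured in the same cells. Cxcr2, the receptor for Cxcl1, Cxcl2 and Cxcl5, was at 28.1, 224 and 150 CPM in the 32, 33 and 24 neutrophil-like cells of S2D, C2D and C6W. The 5 such cells of S6W were left out. Cxcr2 was among the markers used to name this class, so its presence there is not a separate finding, and levels in so few cells are uncertain. Cxcr3, for Cxcl9 and Cxcl10, was at 107, 135, 83.0 and 122 CPM in T-like cells, and Cxcr5, for Cxcl13, at 167, 162, 185 and 157 in B-like cells, with 17 such cells in C2D. Cxcr6, for Cxcl16, was at 650, 722, 872 and 938 CPM in type 2 innate lymphoid-like cells and at 194, 426, 196 and 208 in T-like cells. Cxcr4 was at 127 to 209 CPM in macrophage-like cells. Ackr3, a scavenging receptor for Cxcl12, was at 236 CPM in fibroblast-like cells of S2D and 25.6 in C2D (log2 ratio -3.09, -3.26 to -2.92), and at 168 in S6W and 247 in C6W. Ackr1 was at 22.3 and 3.87 CPM in the same cells of S2D and C2D (log2 -2.41). These 2 receptors were the 2 of 8 with at least 100 UMIs in fibroblast-like cells, both lower, against the 5.55% of genes given above. Among the other CXC chemokines, 5 of 6 could be matched by symbol. Of these Pf4, a platelet and macrophage chemokine, was at 760, 774, 1481 and 527 CPM in macrophage-like cells, and Cxcl3 was at 37.8, 26.6, 31.2 and 6.87.

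Genes known to induce the CXC chemokines or to be induced with them were listed with earlier results of these data known, and are given as counts. Of 22 NF-kB feedback and target genes, 13 of the 14 measured were at least 2-fold higher in acinar-like cells of C2D (median log2 1.95, all genes 0.15) and 0 lower, where 20.6% of all genes were higher. The macrophage marker sum and Lyz2 were higher in the same acinar-like cells, as given above, and their part in this count was not tested. The genes of this list with the largest ratios there, Il1b, Tnf and Tnfaip3, had 5, 6 and 10 UMIs in S2D. They reached the UMI minimum through C2D. In ductal-like cells 5 of 19 were higher and 0 lower (0.34, all genes -0.04), where 5.14% of genes were higher. In fibroblast-like cells 3 of 21 were higher and 2 lower (-0.30, all genes 0.05), against 9.33% and 5.55% of genes. In macrophage-like cells 2 of 21 were higher and 2 lower (0.30, all genes 0.17), against 14.4% and 6.52%. The ductal ones included Ccl20, Ccl7 and Ccl2, chemokines for other leukocytes, at 5.36, 4.13 and 3.74 on the log2 scale. Il1b, a cytokine that induces Cxcl1 and Cxcl2, was at 6.66 there, with 68.5 CPM in ductal-like and 2826 in macrophage-like cells of C2D. Il1b had 291 UMIs beside 1401 of Lyz2 in ductal-like cells of C2D. It had 1083 beside 5339 in fibroblast-like and 93325 beside 663601 in macrophage-like cells. In fibroblast-like cells Il1b and Tnf were among the higher genes. What part of the ductal-like and fibroblast-like counts came from macrophage RNA was not tested. Of 22 interferon-induced genes, 7 of 14 in ductal-like cells and 6 of 21 in macrophage-like cells were at least 2-fold lower in C2D and 0 higher in either, with medians of -0.94 and -0.71, where 5.65% and 6.52% of all genes were lower. In acinar-like cells 2 of the 4 measured were higher and 0 lower, where 20.6% and 13.2% of all genes were. The 2, Isg15 and Psmb8, had 6 and 7 UMIs in S2D and also reached the minimum through C2D. Ifit3 (-2.73), Ifit1 (-2.43) and Isg15 (-1.99) led in macrophage-like cells, and Irf1 was at -1.61 in ductal-like cells. Among the inducing cytokines, Ifnb1, a type I interferon, was at 532 CPM in macrophage-like cells of S2D and 32.1 in C2D (log2 -3.99, -4.16 to -3.81). In fibroblast-like cells 1 of 21 interferon-induced genes was higher and 2 lower at 2 days, against 9.33% and 5.55% of genes. At 6 weeks 3 of 21 were higher and 0 lower there (median 0.49, all genes 0.01), where 0.658% and 0.668% of genes were. At 6 weeks 2 of 15 were higher and 0 lower in ductal-like cells, against 0.33% and 0.0977%. In macrophage-like cells 2 of 11 were higher and 2 lower at 6 weeks, against 3.0% and 5.62%. Of the sheddases that release Cxcl16, Adam10 was 2.04-fold higher and Adam17 was at a log2 ratio of -0.59 in ductal-like cells of C2D.

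The genes most like each member were sought over 32 sums of a class in a library with at least 50 cells, among 9383 genes, by Pearson's r of log2(CPM + 10). The points share libraries and classes, so r is a description. Cxcl12 was most like Ehd2 and Adamts1 (r = 0.98 for both), Cxcl14 most like Col14a1 and Clmp (0.98 for both) and Cxcl1 most like Peli2 and Sqor (0.92 for both). Cxcl16 was most like Rab32 and Cd14 (0.93 for both), Cxcl10 most like Plin2 (0.91) and Cxcl2 most like Galc (0.88). For Cxcl5 this was Cldn2 (0.81), for Cxcl9 Lmo1 (0.81) and for Cxcl13 Dlk1 (0.70), all 3 with few cells behind the member. Among the members, Cxcl2 and Cxcl10 were at r = 0.81, Cxcl1 and Cxcl14 at 0.80, and the neighbours Cxcl1 and Cxcl2 at 0.55, as were Cxcl9 and Cxcl10.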

How the data were processed

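The authors deposited raw counts, whole UMI numbers that had not been normalized. Cell Ranger 3.0.2, FastQC and the build mm10 are listed in the submitters' processing notes. Barcodes under 500 UMIs or 200 genes, or over 20% mitochondrial, were dropped, and doublets called by Scrublet in scanpy 1.11.5 (38, 5, 14 and 30 in S2D, C2D, S6W and C6W) were left out. The C2D rate, 0.107%, is too low for a working call, so an alternative removed the top-scoring 90, 173, 33 and 62 cells, a rate of 0.8% per 1000 barcodes. Cells were clustered together (2000 variable genes without the 9 members, 40 components, 15 neighbours, Leiden resolution 1, no integration) and clusters named from marker lists.

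UMIs were summed per class and library and scaled by TMM totals (edgeR 4.0.16, R 4.3.3). Ratios have exact conditional binomial intervals, levels exact Poisson intervals. A comparison needed 100 UMIs of the gene in the pair and 50 cells of the class in each library. A group of 0 took a floor of 3 counts. Thinned shares used cells of at least 1000 UMIs. The ratio method was tried on simulated Poisson counts with known totals. That simulation had no TMM step and no UMIs piled up in single cells, so it cannot show how the method does under these.

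All 9 members are reported. Further genes were named by rule: up to 4 members of each pathway list with the largest ratios, and the 3 genes most like each member, of which the first 1 or 2 are printed. Receptor, Pf4, Cxcl3, Lyz2 and C1qb levels and the leading genes of clusters were chosen after their values were seen. Members and lists were chosen with earlier results of these data known. Alternatives covered scaling (DESeq2 1.42.0 size factors, plain CPM, and totals that omit digestive genes), the UMI minimum, thinning, filters, free RNA, doublets, clustering and the control of C6W. A further 2, chosen after seeing the data, left out the cell with the most UMIs of a member or added the Reg3b Krt8 cluster to the acinar-like cells.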

Additional observations from a re-analysis of the deposited data

Results flagged for a closer look

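For 10 combinations of gene and class the log2 ratio of caerulein over saline lay on opposite sides of 0 at 2 days and 6 weeks, with both counting intervals away from 0. The difference between the times was not tested, since each group is 1 library. The log2 ratio at 2 days minus that at 6 weeks was 1.58 for Cxcl1 in ductal-like cells, -1.51 in fibroblast-like cells and 5.61 in macrophage-like cells. It was 2.04 for Cxcl2 and -4.24 for Cxcl9 in macrophage-like cells. For Cxcl10 it was -1.51 in ductal-like, -1.86 in fibroblast-like and -1.70 in macrophage-like cells. For Cxcl16 it was 1.48 in ductal-like and 1.39 in fibroblast-like cells. The 2 times use different saline libraries, and for Cxcl1 and Cxcl2 in macrophage-like cells these libraries differed by 3.004 and 1.46 on the log2 scale (S6W over S2D). With S2D as the control of C6W as well, the 6-week log2 ratio of Cxcl10 was -0.16 (-0.27 to -0.06) in macrophage-like cells, the sign seen at 2 days, and 0.05 (-0.07 to 0.18) in ductal-like cells. That of Cxcl16 in fibroblast-like cells was 0.07 (-0.17 to 0.31), and those of Cxcl1 and Cxcl2 in macrophage-like cells were 0.18 and 0.09. The Cxcl9 value rests on 112 and 10 UMIs at 6 weeks, 76 of the 112 in 1 cell.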

How the results depend on the processing

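Of the counts of members at least 2-fold higher or lower, 214 values under alternatives lay within 1.5 times the value reported and 40 did not. Of the log2 ratios, 12 reversed. The cause was not tested. Acinar-like values at 2 days depended on the clustering. Cxcl1 was -0.77 at Leiden resolution 0.5 and -0.57 with members among the variable genes. Cxcl10 was -0.60 and -0.16 under these, and -0.098 with digestive genes out of the variable genes. The count of 4 higher was 2 at a minimum of 400 UMIs, with doublets by expected rate, at resolution 0.5, with digestive genes out, or with the Reg3b Krt8 cluster added, and 1 after thinning or with members among the variable genes. At a minimum of 20 UMIs 1 was lower. In ductal-like cells at 2 days thinning gave 2 higher and 0 lower. In fibroblast-like cells 2 were higher at a minimum of 400 and 1 after thinning, and 1 was lower with DESeq2 size factors, a minimum of 400, doublets kept or doublets by expected rate. In macrophage-like cells 2 were lower without the cell of most UMIs, in plain CPM, with totals without digestive genes, at a minimum of 20, with cells of at least 1000 UMIs, at most 10% mitochondrial UMIs, free RNA subtracted or members among the variable genes, and 3 at resolution 0.5. With clusters of 1 library left out, 2 were higher and 0 lower. This last alternative was not run at 2 days in the other 3 classes, where under 50 cells were left.

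At 6 weeks, acinar-like cells had 0 higher at a minimum of 400, after thinning or with free RNA subtracted. Ductal-like cells had 0 higher after thinning and 1 lower with free RNA subtracted. Fibroblast-like cells had 0 lower after thinning or with doublets by expected rate, where Cxcl13 was 0.055. Macrophage-like cells had 0 higher without the cell of most UMIs, at a minimum of 400 or after thinning, 1 higher at resolution 0.5 or with clusters of 1 library left out, and 1 lower at resolution 0.5. With S2D as the control of C6W, Cxcl2 in ductal-like cells was -1.02, and Cxcl1 and Cxcl2 in macrophage-like cells were 0.18 and 0.086. Cxcl13 in fibroblast-like cells of S6W over S2D was -0.78 without the cell of most UMIs, -1.15 with doublets kept and -1.16 with doublets by expected rate. No paired analysis was possible because each group is 1 library. Genes under 100 UMIs in a pair, among them Cxcl5, Cxcl9 and Cxcl13 in most classes, could not be compared at this depth.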
